A study of Mus musculus with 8 samples.

Results

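Hepatocytes make most of the proteins of blood plasma: albumin and other carriers, apolipoproteins, clotting factors and their serpin inhibitors, complement, and carriers of insulin-like growth factors. In the liver of the embryo the albumin relative alpha-fetoprotein (Afp) is a main plasma protein, and it is turned down after birth while the adult genes stay on. Genes of this kind are read as a measure of hepatocyte identity, and HNF4 and C/EBP factors are known to drive many of them. Whether GRHL2, an epithelial transcription factor (TF) of the Grainyhead family, changed their mRNA levels in liver progenitor cells was examined with 42 genes listed by symbol, by a rule that sets no limit on a measured value. Of these, 35 were among the 18671 genes of the deposited expression table, 33 of them adult plasma protein genes and the other two the fetal genes Afp and Igf2. Apoa4, Apoc1, Fga, Fgg, F7, Vtn and Itih1 were not among the rows of the table used here.

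BMEL (bipotential mouse embryonic liver) cells are a progenitor line that can give rise to hepatocytes and to cholangiocytes. The 8 RNA-seq samples comprised 4 of BMEL cells transfected with a plasmid for human GRHL2 carrying a Flag tag and 4 with the pcDNA3 vector, each numbered 1 to 4 and harvested after 48 h. The GRHL2 plasmid used an EEF1A1 promoter and also encoded a green fluorescent protein, so the groups differed by more than GRHL2, and transfected and untransfected cells were measured together. Both groups grew on collagen in medium with serum, insulin, IGFII and EGF. All cells were of the same line, and the labels name no genotype beyond the plasmids. In bulk samples, fewer cells expressing a gene and less RNA per cell cannot be told apart.

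The deposited values were read as log2 values per transcript length (rlog less the log2 of transcript length), so levels can be set side by side between genes, and a difference of 1 between samples is a doubling. The rlog pulls samples together where reads are few, so differences of low genes are understated, and the depth of each sample is unknown. Adding back the transcript length gave an approximate rlog level for each gene, from which a read number per sample was estimated. Mouse Grhl2, the check of the labels, was at 4.53 ± 0.12 (SD, n = 4) in control and 6.24 ± 0.55 (SD, n = 4) in GRHL2 samples (adjusted p = 0.00100, limma), although the plasmid carries the human cDNA. As a check of the cell type, 8 of 10 hepatoblast markers were in the table, with Hnf4a at 11.16 ± 0.078 (SD, n = 4) and Foxa2 at 10.33 ± 0.19 (SD, n = 4) in control samples. Of 24 markers of adult hepatocytes 13 were in the table, and 7 of these had a mean under 2, among them Tat (0.22 in control samples), Cps1 (-0.65) and Cyp2e1 (1.5).

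Of the 35 plasma protein genes, 4 rose and 4 fell with GRHL2 (adjusted p under 0.05 by limma, Benjamini-Hochberg over all genes tested). Complement C3, clusterin (Clu), apolipoprotein H (Apoh) and C1 inhibitor (Serping1) were higher, and Afp, apolipoprotein E (Apoe), antithrombin (Serpinc1) and Igfbp1 were lower. The number of higher genes was 2 in the fits without control replicate 1, 2, 3 or 4 or GRHL2 replicate 1 or 3, and 7 with an equal upper quartile in each sample. These 8 genes were 22.9% of the list, and 16.4% of all genes tested were called, 10.5% higher and 5.91% lower. The differences ran from -0.30 for Apoe to 0.50 for C3, and 31 of the 35 stayed within 0.2 on the log2 scale, on which differences of genes with few reads are understated. Their median was 0.014, beside 0.0066 over all genes, with 22 differences above 0 and 13 below. With the replicate number as a block, which pairs the samples, 9 genes were called where 32.1% of all genes were (18.2% higher and 13.9% lower): retinol-binding protein (Rbp4) and hemopexin (Hpx) joined the lower genes, and Serping1 was lost (adjusted p = 0.0555). The 4 GRHL2 samples lay wholly above the 4 control samples in 5 genes and below them in 4, which are the 8 called genes and Igfbp2, whereas 23.8% of all genes were apart in this way (14.3% higher and 9.47% lower).

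**Figure D1:**
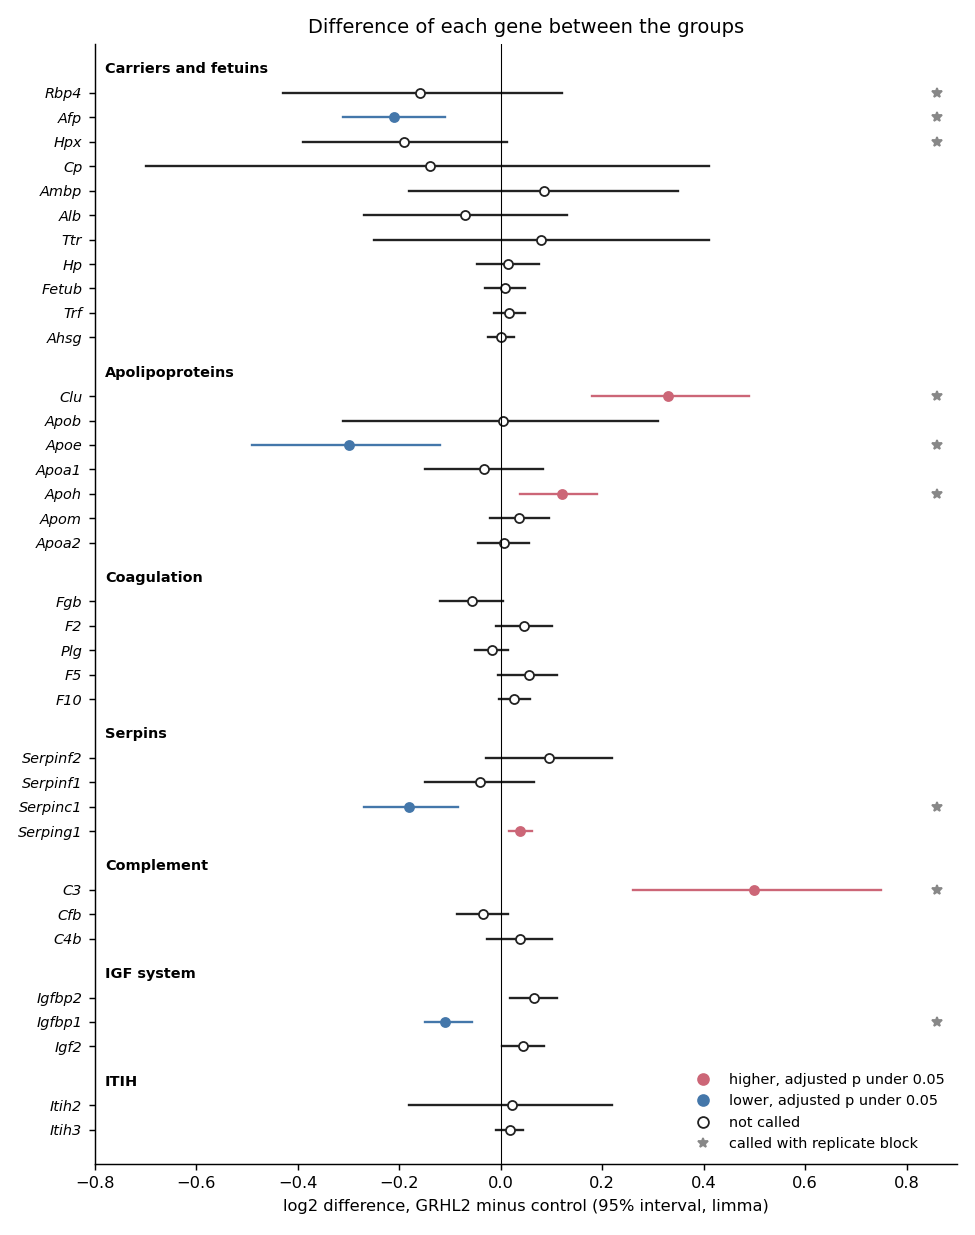
Difference of each of the 35 genes between the groups (x axis, log2, GRHL2 minus control, points with the 95% interval of limma, 4 samples in each group), grouped by role, with filled symbols for an adjusted p under 0.05 and stars for genes called with the replicate block. The points lie between -0.30 (Apoe) and 0.50 (C3), and the intervals of the genes with few reads are narrow around 0 because the rlog shrinks their values.

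The genes spanned a wide range of levels. On the scale per length, Clu (15.25 ± 0.093 in control samples, SD, n = 4), Rbp4 (13.56 ± 0.21) and apolipoprotein B (Apob, 11.47 ± 0.22) were highest, at the 99.9th, 99.4th and 96.4th percentile of all genes by mean value. Afp was next at 8.32 ± 0.047, followed in control samples by Hpx, ceruloplasmin (Cp), Apoe and alpha-1-microglobulin (Ambp), and then by albumin (Alb), C3 and transthyretin (Ttr). Apoe and Ambp, and C3 and Ttr, differed by less than their spread between replicates. Hpx (8.17 ± 0.14) differed from Afp by about as much as its own replicates varied. At the other end, 13 genes had a mean under 2, among them transferrin (Trf), fetuin-A (Ahsg), prothrombin (F2), plasminogen (Plg) and the fibrinogen chain Fgb.

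**Figure D2:**
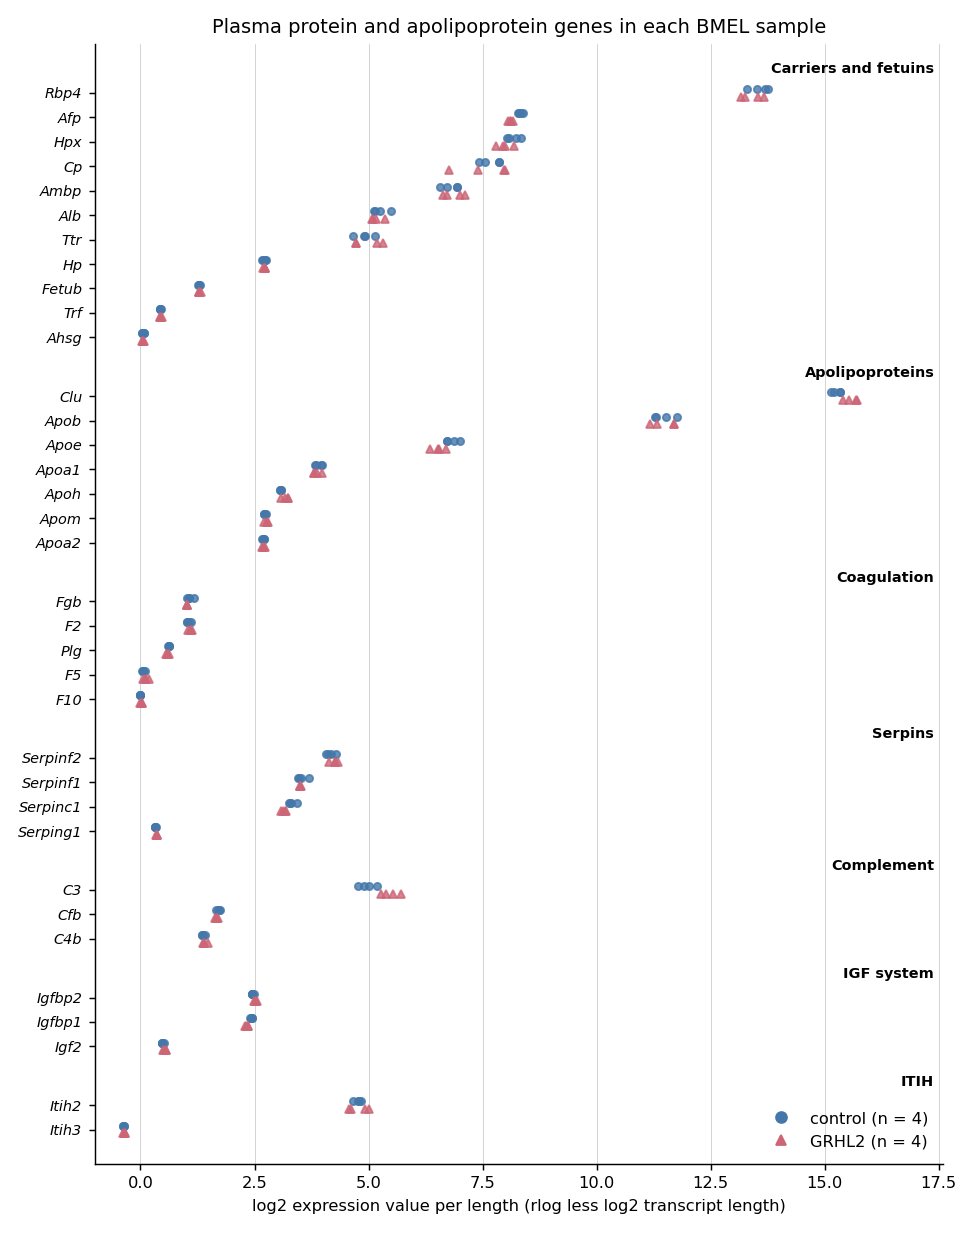
Values of the 35 genes in every sample (x axis, log2 per transcript length), grouped by role, with circles for the 4 control and triangles for the 4 GRHL2 samples. Clu, Rbp4 and Apob are highest and Itih3 lowest in both groups, and the differences between groups are small beside the range from -0.37 to 15.58 of the group means.

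The approximate rlog level was at least 4, or about 16 reads, in 13 genes, a limit chosen after the values had been seen. Of these, 4 were called (Afp, Apoe, C3 and Clu), or 30.8%, beside 17.5% of all genes at such levels. The other 22 genes gave the calls of Apoh, Serping1, Serpinc1 and Igfbp1, or 18.2% beside 14.4% of all genes under that level, and their largest difference was 0.18 on the log2 scale. Among all genes with a mean value under 2, 14.3% were called higher and 0.895% lower, and of the 13 plasma protein genes there 1 was called higher. Where the mean was at least 2, the shares were 9.51% and 7.19%, and of the 22 plasma protein genes there 3 were called higher and 4 lower.

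Alb and Afp are neighbouring relatives on mouse chromosome 5 (GRCm38, 90460897 to 90476602 and 90490737 to 90508907, both on the plus strand), with a gap of 14.1 kb between them. Both promoters are known targets of C/EBP factors. Their 250 bases before the RefSeq start (GRCm38.p6, chr5:90460620-90460869 for Alb and chr5:90490464-90490713 for Afp, plus strand, 5′ to 3′) are shown since these 2 genes carry the comparison of the fetal with the adult gene. Capitals mark the C/EBP motif TTGCNNAA, which begins at position -94 from the start in Alb, where it is read from the other strand, and at -89 in Afp:
Alb: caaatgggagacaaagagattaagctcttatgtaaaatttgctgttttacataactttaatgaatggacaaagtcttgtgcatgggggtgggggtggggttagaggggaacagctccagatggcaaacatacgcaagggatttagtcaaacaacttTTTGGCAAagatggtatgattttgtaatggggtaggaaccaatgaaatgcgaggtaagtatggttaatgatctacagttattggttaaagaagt
Afp: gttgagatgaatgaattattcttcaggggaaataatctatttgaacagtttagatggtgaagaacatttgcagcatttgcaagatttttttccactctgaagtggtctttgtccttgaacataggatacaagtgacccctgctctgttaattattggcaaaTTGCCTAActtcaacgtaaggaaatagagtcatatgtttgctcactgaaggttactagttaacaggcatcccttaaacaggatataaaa

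In control samples 1 to 4, Afp was at 8.35, 8.28, 8.38 and 8.29, and in GRHL2 samples 1 to 4 at 8.06, 8.13, 8.17 and 8.09 (log2 per length). Every GRHL2 sample lay below every control sample. The difference was -0.21 (95% interval -0.31 to -0.11, adjusted p = 0.0124, limma), a fold of 0.863. The call was kept with each sample left out in turn, with adjusted p-values from 0.0146 to 0.0411.

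Alb, the main carrier of adult plasma, was at 5.13, 5.14, 5.25 and 5.49 in the control samples and at 5.10, 5.17, 5.37 and 5.08 in the GRHL2 samples. The groups overlapped, with control sample 4 highest and GRHL2 sample 4 lowest. At -0.07, the difference was smaller than the spread between replicates (95% interval -0.27 to 0.13, adjusted p = 0.634, limma), and it turned to 0.0079 without control replicate 4.

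Within a sample, the value of Afp exceeded that of Alb by 3.22, 3.14, 3.13 and 2.80 in control and by 2.96, 2.96, 2.80 and 3.01 in GRHL2 samples. On the scale per length, Afp was thus 8.41 times as high as Alb in control and 7.63 times in GRHL2 samples. The excess fell by 0.14, from 3.07 ± 0.18 to 2.93 ± 0.092 (SD, n = 4), which was within the spread between samples (exact permutation test over samples, two-sided, p = 0.229; sign flips within same-numbered pairs, p = 0.375, where 4 pairs allow no p under 0.125). Control sample 4, with the highest Alb, decided this: without it the difference was -0.23 and the exact permutation p 0.0286, the smallest that 3 samples against 4 allow.

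Against the median of the 33 adult genes in the same sample, Afp stood 5.58 ± 0.049 (SD, n = 4) higher in control and 5.35 ± 0.054 higher in GRHL2 samples, a difference of -0.24 that is given as a description. That median is set by genes with few reads. Among the 33 adult genes, 4 rose and 3 fell, or 3 and 5 with the replicate block, their median difference was 0.014, and only Apoe had a more negative difference than Afp. Igf2, the other fetal gene and a growth factor, was at 0.49 ± 0.018 in control and 0.53 ± 0.036 in GRHL2 samples (SD, n = 4; adjusted p = 0.147, limma), at about 2.84 reads.

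**Figure D3:**
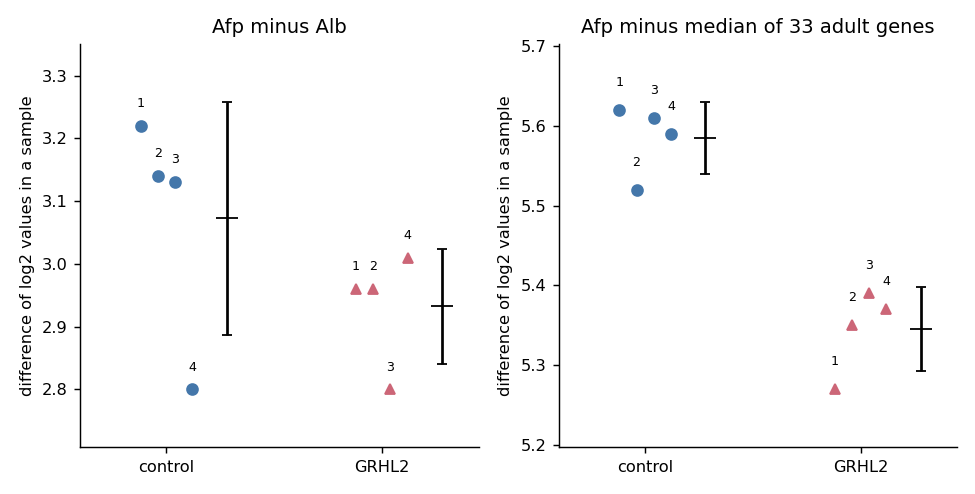
Afp minus Alb (left) and Afp minus the median of 33 adult genes (right) in each sample (y axis, difference of log2 values per length; numbered points are replicates, bars the mean ± SD of 4 samples). On the left the groups overlap, with control sample 4 at 2.80, and on the right the control samples lie from 5.52 to 5.62 and the GRHL2 samples from 5.27 to 5.39; neither y axis starts at 0.

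Afp lies beside afamin (Afm), a vitamin E carrier of the same family, 10.0 kb further along. Afm was at 2.84 ± 0.093 in control and 2.98 ± 0.18 in GRHL2 samples (SD, n = 4), a difference of 0.14 in the other direction (adjusted p = 0.284, or 0.0180 with the replicate block, limma). Of 18 fetal liver genes fixed as a list, 13 were in the table, of which Hmga2 (0.21) and Cdkn1c (0.19) rose and Afp and Igf2bp1 (-0.26) fell on the log2 scale. Called were 30.8% of the 13, beside 16.4% of all genes. With the replicate block 4 of the 13 were higher and 2 lower, where 32.1% of all genes were called.

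The other carriers are led by Rbp4, which brings vitamin A to tissues and binds Ttr in plasma. Rbp4 was at 13.52, 13.29, 13.69 and 13.75 in control and at 13.17, 13.25, 13.54 and 13.66 in GRHL2 samples. The ranges overlapped, yet each GRHL2 sample lay below the control sample of the same number. Its difference of -0.16 had an adjusted p of 0.434 without and 0.0303 with the replicate block (limma).

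Hpx, which binds free heme, behaved alike: 8.03, 8.08, 8.23 and 8.34 in control samples stood against 7.80, 7.94, 8.0 and 8.18 in GRHL2 samples. All 4 same-numbered pairs went down, while the ranges overlapped. The difference was -0.19 (95% interval -0.39 to 0.013), with an adjusted p of 0.188 and of 0.00543 with the replicate block (limma).

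Cp, the copper-carrying ferroxidase, was at 7.55, 7.42, 7.86 and 7.87 in control and at 7.39, 6.77, 7.98 and 8.0 in GRHL2 samples. GRHL2 sample 2 was lowest by far, and the difference of -0.14 (adjusted p = 0.747, limma) turned to 0.11 without it. Exons of Cp overlap those of Hps3 on the opposite strand, and the counting did not use strand. Ttr, the thyroxine carrier, was at 4.90, 4.66, 4.92 and 5.15 in control and at 4.72, 4.72, 5.19 and 5.32 in GRHL2 samples (difference 0.08, 95% interval -0.25 to 0.41, adjusted p = 0.766). Ambp, the precursor of alpha-1-microglobulin and bikunin, differed by 0.09 (95% interval -0.18 to 0.35). The remaining carriers, namely haptoglobin (Hp), fetuin-B (Fetub), Trf and Ahsg, had estimated read numbers from 1.17 to 6.33 and differences from 0.00072 to 0.017, none of them called. In all, 1 of the 11 carriers was called, and 3 with the replicate block.

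Among the apolipoproteins, 2 of 7 rose and 1 fell. Clu, a chaperone found on lipoproteins and widely made by epithelia, was at 15.20, 15.14, 15.33 and 15.33 in control and at 15.41, 15.54, 15.71 and 15.68 in GRHL2 samples. The lowest GRHL2 value exceeded the highest control value. Clu rose by 0.33 (95% interval 0.18 to 0.49, adjusted p = 0.0105, limma), a fold of 1.26, at an estimated 38900 reads, and kept its call without any one sample (adjusted p from 0.00500 to 0.0356). Of 12 cholangiocyte markers, all in the table, 3 rose as well (Epcam by 1.75, Krt7 by 0.44 and Prom1 by 0.29), or 8 with the replicate block. Over all genes, 10.5% were called higher, and 18.2% with the replicate block. The mean value of the cholangiocyte markers ran from 6.49 to 6.74 in control and from 6.86 to 7.07 in GRHL2 samples. The part of such cells in the rise of Clu was not tested.

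Apoe, the ligand by which remnant lipoproteins are taken up, was at 6.73, 7.0, 6.73 and 6.87 in control and at 6.54, 6.69, 6.34 and 6.53 in GRHL2 samples. All GRHL2 samples lay below all control samples. It fell by 0.30 on the log2 scale (95% interval -0.49 to -0.12, adjusted p = 0.0340, or 0.00117 with the replicate block, limma), a fold of 0.810. The call was lost without control replicate 2 or 4, or GRHL2 replicate 1, 3 or 4, with adjusted p-values from 0.0685 to 0.0792. Apoc2, 18.2 kb away in the same gene cluster, was at 4.45 ± 0.083 and 4.50 ± 0.15 (SD, n = 4; adjusted p = 0.643). Macrophages also make Apoe, and of 6 macrophage and leukocyte markers in the table (10 listed) none was called by limma at the adjusted threshold, with 1 higher at an unadjusted p under 0.05 and 1 called with the replicate block. The mean value of these markers ran from 3.25 to 3.33 in control and from 3.30 to 3.37 in GRHL2 samples, with Ptprc at 0.90, Lyz2 at 1.32 and Cd163 at -1.48 in control samples. Other genes of that list were well above them, with Cd14 at 8.47, Cd68 at 6.08 and Csf1r at 4.48, and Cd68 differed by 0.16 (adjusted p = 0.0559, or 0.0205 with the replicate block). Their part in the fall of Apoe was not tested.

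Apoh, which binds phospholipids, was at 3.07, 3.06, 3.05 and 3.08 in control and at 3.24, 3.23, 3.17 and 3.08 in GRHL2 samples. GRHL2 sample 4 was level with control sample 4 to the second decimal. The difference was 0.12 (adjusted p = 0.0486, limma) at an estimated 5.80 reads, and the call was kept in 1 of the 8 fits that left out a sample, that without GRHL2 replicate 4. In the other 7 fits (without control replicate 1, 2, 3 or 4 or GRHL2 replicate 1, 2 or 3) the adjusted p ran from 0.0742 to 0.117. An exon of Apoh overlaps Prkca on the opposite strand, and reads within the overlap cannot be assigned to either gene without strand.

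Apob, the structural protein of very low density lipoprotein, was at 11.52, 11.77, 11.30 and 11.29 in control and at 11.69, 11.70, 11.32 and 11.18 in GRHL2 samples. Replicates 1 and 2 were above replicates 3 and 4 in both groups, and the groups overlapped. The difference was 0.0040 with a 95% interval from -0.31 to 0.31 (adjusted p = 0.989, limma), and with the replicate block the interval ran from -0.10 to 0.11. Apoa1, the main protein of high density lipoprotein, differed by -0.03 (95% interval -0.15 to 0.083), Apoa2 by 0.0057 and Apom, a carrier of sphingosine-1-phosphate, by 0.04, and none was called. The lipid transfer gene Mttp stood at 5.63 ± 0.13 and 5.58 ± 0.076 (SD, n = 4; adjusted p = 0.673).

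**Figure D4:**
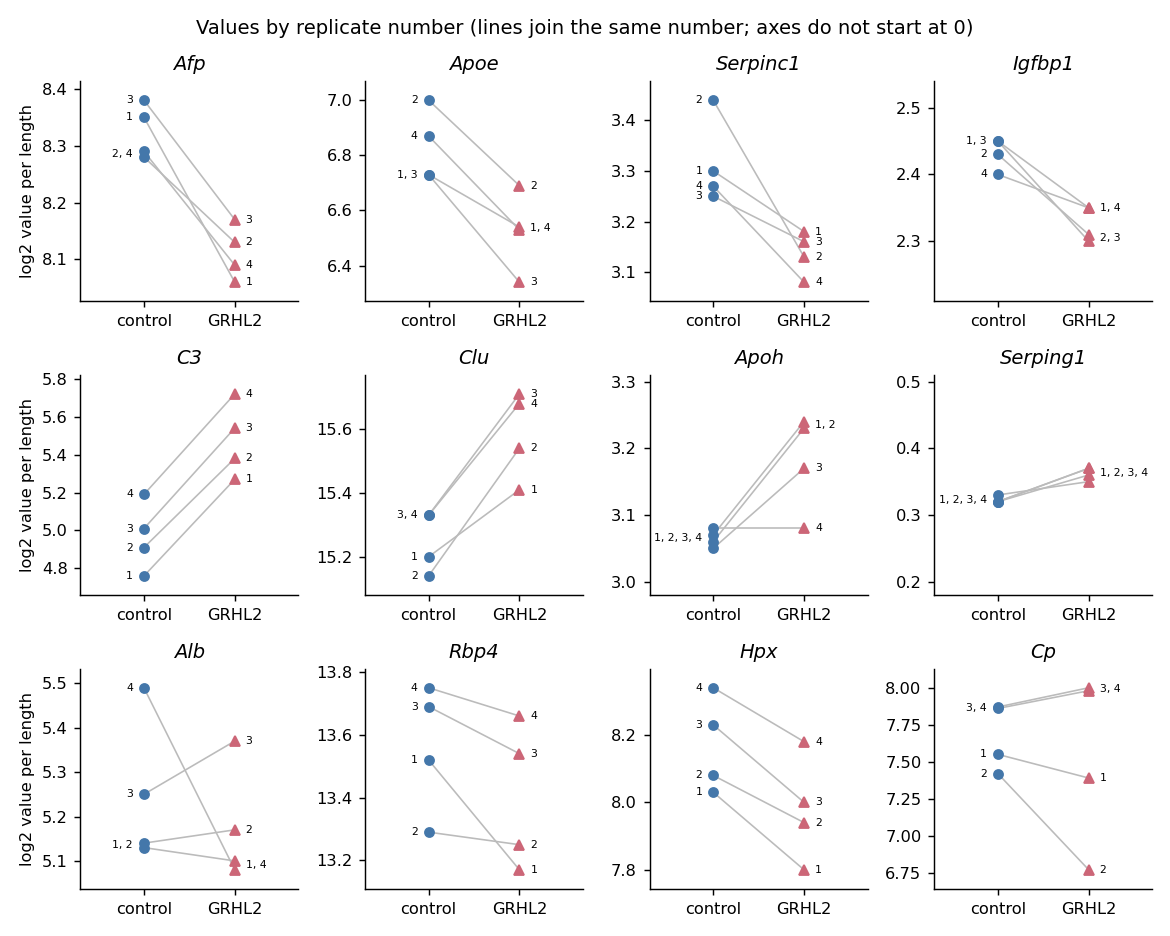
Values of 12 genes in each sample (y axis, log2 per transcript length, axes not starting at 0), with grey lines joining control and GRHL2 samples of the same replicate number. The lines of Afp, Apoe, Serpinc1 and Igfbp1 all go down and those of C3 and Clu all go up, whereas those of Alb and Cp go both ways, and Rbp4 and Hpx go down in each pair although the groups overlap.

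The 3 complement genes were led by C3, the central protein of the cascade and an acute phase gene with C/EBP sites in its promoter. Its 250 bases before the RefSeq start are given here as the gene that rose most (GRCm38.p6, chr17:57228137-57228386, minus strand, 5′ to 3′). Capitals mark the same motif at position -45:
C3: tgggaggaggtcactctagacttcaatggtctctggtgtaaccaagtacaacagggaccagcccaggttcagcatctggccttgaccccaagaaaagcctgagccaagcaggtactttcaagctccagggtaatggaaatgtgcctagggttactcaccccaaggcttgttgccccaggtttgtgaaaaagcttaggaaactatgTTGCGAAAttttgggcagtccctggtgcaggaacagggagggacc

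C3 was at 4.76, 4.91, 5.01 and 5.19 in control and at 5.27, 5.38, 5.54 and 5.72 in GRHL2 samples. The highest control sample lay just below the lowest GRHL2 sample, and within same-numbered pairs the steps were nearly equal. C3 rose by 0.50 (95% interval 0.26 to 0.75, adjusted p = 0.0125, or 4.07e-05 with the replicate block, limma), a fold of 1.42 at an estimated 62.2 reads. The call held without any one sample (adjusted p from 0.00898 to 0.0377).

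Factor B (Cfb), the protease of the alternative pathway, was at 1.71 ± 0.032 and 1.67 ± 0.031 (SD, n = 4), and C4b at 1.37 ± 0.037 and 1.41 ± 0.054. Neither was called. C4b has a near-identical copy, C4a (3.47 ± 0.065 and 3.55 ± 0.093, adjusted p = 0.270, limma), and reads that match both cannot be assigned to either. C2, directly beside Cfb, was at 1.67 in both groups. In a further list of plasma proteins, 60 of 93 were in the table. Of these, 5 rose and 3 fell, or 13.3%, beside 16.4% of all genes. With the replicate block 11 rose and 3 fell, where 32.1% of all genes were called. Those that fell were the complement genes Cfp (properdin, -0.33, adjusted p = 0.00124) and Masp1 (-0.31, adjusted p = 0.0167) and the lipase inhibitor gene Angptl8 (-0.33, adjusted p = 0.00189). Among those that rose, Hgfac, which activates hepatocyte growth factor, had a difference of 0.36 (adjusted p = 0.0239), and Igfbp3 and Azgp1 ones of 0.28 and 0.09. The complement gene C6 rose by 0.058 (adjusted p = 0.0245, limma), at an estimated 2.71 reads.

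Of the 4 serpins, Serpinc1, the inhibitor of thrombin and factor Xa, was at 3.30, 3.44, 3.25 and 3.27 in control and at 3.18, 3.13, 3.16 and 3.08 in GRHL2 samples. No GRHL2 sample reached the control range. It fell by 0.18 (adjusted p = 0.0180, limma), at an estimated 15.0 reads, and kept its call without any one sample (adjusted p from 0.0216 to 0.0481). Exons of Serpinc1 overlap those of Zbtb37 on the opposite strand.

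Serping1, the inhibitor of C1, was called higher with values of 0.32, 0.32, 0.32 and 0.33 in control and 0.37, 0.36, 0.37 and 0.35 in GRHL2 samples. The difference of 0.04 (adjusted p = 0.0308, limma) was at an estimated 1.83 reads per sample, the call was lost without any one control sample or GRHL2 replicate 1 or 3 (adjusted p from 0.0507 to 0.0772), and with no mean-variance trend the adjusted p was 0.187. Serpinf2, the plasmin inhibitor, differed by 0.10 (95% interval -0.029 to 0.22) and Serpinf1, an inhibitor of vessel growth, by -0.04, and neither was called.

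None of the 5 coagulation genes in the table was called by limma, without or with the replicate block. Without the block none had an unadjusted p under 0.05. With it, the 95% interval of Fgb ran from -0.11 to -0.0032 and that of F5 from 0.0036 to 0.11. Fgb differed by -0.06 (adjusted p = 0.191), F2 by 0.05 (0.249), F5 by 0.05 (0.194), F10 by 0.03 (0.215) and Plg by -0.02 (0.455), where the number in brackets is the adjusted p. Their estimated read numbers ran from 1.58 to 7.91, a depth at which the rlog leaves little of any difference. By contrast protein C (Proc), a clotting inhibitor outside the 42 genes, had 9.40 ± 0.26 in control and 9.66 ± 0.27 in GRHL2 samples (SD, n = 4), with an adjusted p of 0.269 that was 0.00133 under the replicate block.

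In the IGF system, Igfbp1, a binding protein that liver releases when insulin is low, was at 2.45, 2.43, 2.45 and 2.40 in control and at 2.35, 2.31, 2.30 and 2.35 in GRHL2 samples. The groups did not overlap. It fell by 0.11 (adjusted p = 0.0110, limma) at an estimated 7.94 reads, and the call held without any one sample (adjusted p from 0.0143 to 0.0356). Igfbp3, 3.5 kb away on chromosome 11, moved the other way, from 10.81 ± 0.11 to 11.10 ± 0.10 (SD, n = 4; adjusted p = 0.0195). Igfbp2 is abundant in the fetal liver, though it was counted here among the adult genes. It was at 2.44, 2.45, 2.45 and 2.48 in control and at 2.55, 2.51, 2.53 and 2.49 in GRHL2 samples, apart but not called (0.07, adjusted p = 0.0596, limma, or 0.0439 when only genes with a mean value of at least 2 were tested). The medium of both groups contained insulin and IGFII.

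Both inter-alpha-trypsin inhibitor heavy chains in the table, which stabilize hyaluronan, missed the threshold without and with the replicate block, and neither had an unadjusted p under 0.05. Itih2 was at 4.78, 4.66, 4.76 and 4.83 in control and at 4.62, 4.58, 5.00 and 4.92 in GRHL2 samples (difference 0.02, 95% interval -0.18 to 0.22). GRHL2 samples 1 and 2 lay below all control samples and GRHL2 samples 3 and 4 above them. Itih3 was at -0.37 and -0.35, and Itih4, 6.2 kb from it, at 0.98 and 0.95.

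By acute phase behaviour, 9 of 11 listed positive acute phase genes were in the table, of which C3 and Serping1 rose. None of them fell by limma, also at an unadjusted p under 0.05, and Hpx was lower with the replicate block. The 7 negative acute phase genes (Alb, Ttr, Trf, Rbp4, Ahsg, Apoa1 and Apoa2) gave no call by limma and none with an unadjusted p under 0.05, and Rbp4 was lower with the replicate block. Trf, Ahsg, Apoa1 and Apoa2 lay under an approximate rlog level of 4, where differences are understated. Of the positive acute phase genes, 5 had a mean under 2. Beside the acute phase genes, 10 of 18 interferon genes fell and none rose, with Ifit1 at -1.63 and Cxcl10 at -1.13 on the log2 scale. No interferon gene was higher at an unadjusted p under 0.05. With the replicate block 14 of them were lower and 1 higher. Over all genes, 5.91% were called lower, and 13.9% with the replicate block. Of the liver TFs, 27 of 28 were in the table, with 6 higher and 3 lower, or 33.3%, beside 16.4% of all genes. With the replicate block 10 of the TFs were higher and 4 lower, where 32.1% of all genes were called. Of the drivers of acute phase genes, Cebpd rose by 0.19 (adjusted p = 0.00228) and Stat3 by 0.15 (adjusted p = 0.0490), while Cebpb fell by 0.41 (adjusted p = 0.000362). Zbtb20, a repressor of Afp, fell by 0.33 (adjusted p = 0.0144) and Gata4 by 0.29 (adjusted p = 0.00456), and Prox1 rose by 0.47 (adjusted p = 0.000760). Hnf4a (-0.0029), Cebpa (0.12) and Zhx2, another repressor of Afp (-0.00094), were not called. The part of these changes in those of the plasma protein genes was not tested.

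Replicates 1 and 2 differed from replicates 3 and 4, although the labels name no batch. Of the 13 genes with an approximate rlog level of at least 4, 12 moved the same way between the pairs of replicates in both groups, with Serpinf2 the exception. In 9 of the 13 (Alb, Ttr, Rbp4, Ambp, Hpx, Cp, Apob, Serpinf2 and Itih2) the move was larger in each group than the difference between GRHL2 and control. It was largest for Cp, at 0.38 in control and 0.91 in GRHL2 samples, and reached -0.35 and -0.44 for Apob. Afp moved by 0.02 and 0.03. Within replicates 1 and 2 the difference of GRHL2 from control was -0.22 for Afp, -0.25 for Apoe, 0.30 for Clu and 0.49 for C3, and within replicates 3 and 4 it was -0.21, -0.36, 0.37 and 0.52.

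**Figure D5:**
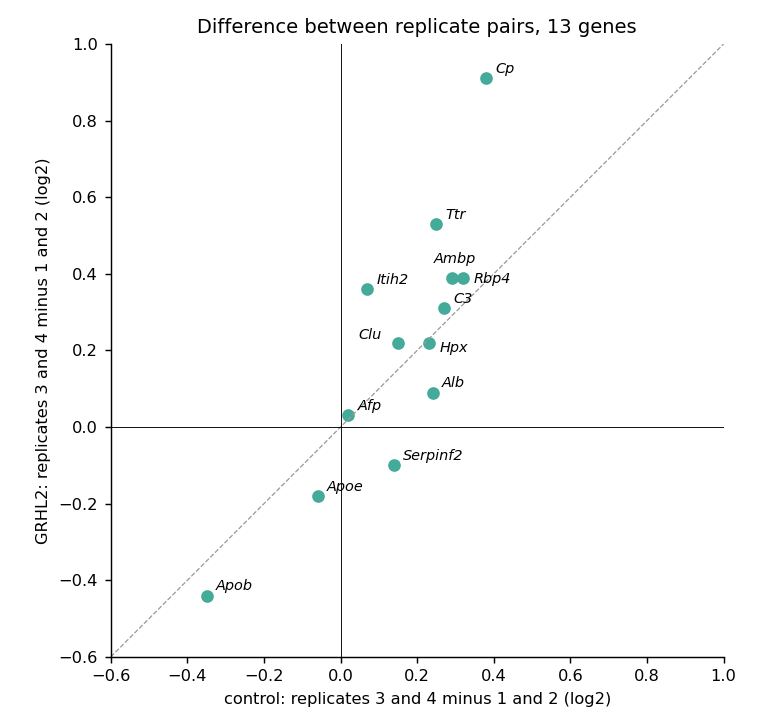
Mean of replicates 3 and 4 minus mean of replicates 1 and 2 in control (x axis) and GRHL2 samples (y axis), both on the log2 scale, for the 13 genes with an approximate rlog level of at least 4; the dashed line marks equal values. Of the genes, 12 lie in the quadrants of shared direction, from Apob (-0.35 and -0.44) to Cp (0.38 and 0.91), with Serpinf2 outside them and Afp near 0.

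RefSeq promoters, 37 in all, were found for 27 of the 35 genes. In windows of 250 bases before the start, both strands searched, TTGCNNAA was in 11 of the 37 (29.7%, as against 9.57% of all 32841 promoters), among them those of Alb, Afp, C3, Apob, Hpx and Rbp4, and the TATA box letters TATAAA in 7 (18.9%, against 12.4%). AACCNGTT, the letters bound by Grainyhead factors, was in none of the 37 and in 1.79% of all promoters. These counts describe letters in a short window, and several promoters belong to the same gene.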

How the data were processed

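RNA was measured by paired-end RNA-seq in 8 samples of BMEL cells, 4 GRHL2 and 4 control, grouped and numbered by their labels. By the submitters' processing notes, the tools were HISAT2 2.2.1, HTSeq 0.9.1 and DESeq2 1.40.2 (the methods give other versions of HISAT2 and DESeq2). The methods describe mapping to mm10, unstranded counting on exons, a minimum of 10 cumulated reads per gene and rlog values divided by mean transcript length. That passage first speaks of public data and was assumed to hold for these samples. The deposited values are log2 values although named FPKM: they run from -2.85 to 18.01, and 4.81% are below 0. A log2 of FPKM would look alike. No read totals are given, so depth is unknown.

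The values were tested as deposited, without a pseudocount or filter, with limma 3.58.1 in R 4.3.3 (2 groups, mean-variance trend, Benjamini-Hochberg over 18671 genes, adjusted p under 0.05). Single quantities were tested with an exact two-sided permutation test, whose smallest p for 4 samples against 4 is 0.0286. The legend of the study names independent biological replicates. Same-numbered samples deviated together from their group means (Pearson's r across genes 0.474, 0.565, 0.549 and 0.645 for numbers 1 to 4), so the replicate numbers were taken to pair the samples. Different numbers did so as well within replicates 1 and 2 (0.436 and 0.344) and within 3 and 4 (0.602 and 0.500), and r was between -0.611 and -0.399 across these divisions, so pairing by number and a shared division of the replicates are hardly told apart. Values with the replicate block are given where they change the call of a listed gene or move a count of calls by over 1.5 times. For approximate rlog levels, log2 transcript length in kb (GENCODE M21 mean, found for 18428 genes) was added back. Gene positions were taken from the same annotation, on GRCm38. Promoters are RefSeq's (GRCm38.p6). The fit was tested on simulated data. Alternatives were other scalings, no trend, the replicate block, a batch term that set replicates 1 and 2 against the others, a mean value of at least 2, each sample left out and, chosen after seeing the data, replicates 1 and 2 or 3 and 4 alone.

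Named genes were the listed genes, Grhl2, their genomic neighbours, cell type markers and, of each further list, called genes whose groups do not overlap, some of which are not reported here; Proc, Mttp, Hnf4a, Foxa2, Cebpa, Cebpd, Stat3 and Zhx2 were added with their values seen. The 42 genes and all further lists were chosen with earlier results of these data known. Of the cell type lists, cholangiocyte markers had 3 of 12 genes higher (Epcam, Krt7 and Prom1), endothelial 1 of 6 (Vwf, 3 with the replicate block), stellate and fibroblast 2 of 6 (Pdgfrb and Reln), erythroid 1 of 4 (Epor), adult hepatocyte 1 of 13 (Ass1), and hepatoblast 2 of 8 higher (Lgr5 and Cdh1) and 1 lower (Afp). Over all genes, 10.5% were called higher and 5.91% lower.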

Additional observations from a re-analysis of the deposited data

Results flagged for a closer look

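In 74 groups of 4 samples (the 35 genes and the 2 Afp comparisons, each in control and in GRHL2 samples), 3 held a sample far from the others, where chance gives about 1 in 20 groups, or 3.7. F5 was at 0.11 in control sample 1 and from 0.04 to 0.05 in the other control samples. Serping1 was at 0.33 in control sample 4 and at 0.32 in the others. Igfbp2 was at 2.48 in control sample 4 and from 2.44 to 2.45 in the others. These gaps are all small on the log2 scale, at genes with few reads.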

How the results depend on the processing

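With the replicate number as a block, which pairs the samples, 3 genes were higher and 6 lower, against 4 and 4 without it: Rbp4 (-0.16, adjusted p = 0.0303) and Hpx (-0.19, adjusted p = 0.00543, both limma) were added, Serping1 (0.0384, adjusted p = 0.0555) was lost, and the block changed no other call among the 35 genes. A batch term that set replicates 1 and 2 against the others also gave 6 lower genes, with 4 higher.

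With an equal upper quartile in each sample, 7 genes were higher (F10, Igfbp2 and Itih3 were added) and the median difference was 0.037. With equal sums the median was 0.038, and Igf2 and Igfbp2 were added to the higher genes. Plg turned to 0.0046 and 0.0061 under these scalings. Without the mean-variance trend 2 genes were higher, and Apoe (adjusted p = 0.0510), Apoh (0.0670) and Serping1 (0.187) lost their calls. Testing only genes with a mean value of at least 2 added Igfbp2 (adjusted p = 0.0439) to the calls and left Serping1 untested. A scaling cannot change Afp minus Alb, which is taken within a sample.

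Replicates 1 and 2 alone gave 2 higher and 0 lower genes by limma, with 6 and 4 at an unadjusted p under 0.05, and replicates 3 and 4 alone gave 2 higher and 3 lower. In replicates 1 and 2 alone, genes that were not called turned in direction: Alb to 0.0024, Ttr to -0.06, Fetub to -0.0094, Hp to -0.014, Apoa2 to -0.0024 and Itih2 to -0.12. In replicates 3 and 4 alone these were Ahsg (-0.01), Cp (0.12), Apob (-0.042) and Serpinf2 (-0.024). No called gene turned.

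With each sample left out, the number of higher genes ran from 2 to 4, and it was 2 without control replicate 1, 2, 3 or 4 or GRHL2 replicate 1 or 3. That of lower genes ran from 3 to 4, the median difference from 0.0055 to 0.015 and Afp minus Alb from -0.23 (without control replicate 4) to -0.09. The direction of some genes that were not called turned: Ahsg ran from -0.0054 to 0.0067, Apoa2 from -0.0039 to 0.0150, Ttr from -0.0310 to 0.170, Serpinf1 from -0.0680 to 0.01, Itih2 from -0.0500 to 0.0880, Fetub from -0.0043 to 0.0140, Apob from -0.0710 to 0.1, Alb from -0.140 to 0.0079, Hp from -0.0021 to 0.0320 and Cp from -0.300 to 0.110. The cause of these changes was not tested. With 22 of the 35 genes under an approximate rlog level of 4, the low differences of these genes say little about their size.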
